A study of Mus musculus with 8 samples.

Results

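The angiogenin ribonucleases and their inhibitor were followed here as 5 genes of the 55414 in the deposited count table: Ang, Ang4, Ang5 and Rnase4, which code for secreted ribonucleases, and Rnh1, which codes for the cytosolic ribonuclease inhibitor. They were taken by name, with Ensembl identifiers matched to GENCODE symbols, and not by their values. All 5 were in the table, and 4 of them passed the expression filter that left 10707 genes for testing, while Ang5 did not.

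Bulk RNA-seq was done on mouse Paneth cells (PCs), the granule-filled secretory cells at the base of the small intestinal crypts, which were sorted by FACS from the small intestine of 8 mice, with 1 library per mouse. For 7 days, 4 mice drank Milli-Q water (ultrapure water) alone and 4 drank Milli-Q water with 25 mM zinc sulfate. All 8 mice then received an injection of TNF (tumor necrosis factor, a cytokine of inflammation) 3 hours before their PCs were taken, so every value comes from TNF-treated mice and the comparison is zinc against plain water under TNF. The methods of the study name C57BL/6J mice for its sorted PCs, and no genetic change is given for these mice. The sources used here do not give their age.

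Angiogenins belong to the pancreatic ribonuclease (RNase A) family, a group of small secreted enzymes encoded in a cluster of genes. Angiogenin itself promotes blood vessel growth and, in stressed cells, cuts tRNAs at their anticodon loop, whereas mouse ANG4 is a granule protein of PCs with antimicrobial activity that is released into the crypt lumen. The ribonuclease inhibitor RNH1 binds enzymes of this family very tightly in the cytosol and so shields cellular RNA from them.

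On GRCm39, Ang (ENSMUSG00000072115) lies at chr14:51328534-51341074 on the plus strand and Rnase4 (ENSMUSG00000021876) at chr14:51328534-51343608 on the same strand, so both begin at the same base. Ang4 (ENSMUSG00000060615) lies at chr14:51990721-52011053 on the minus strand, Ang5 (ENSMUSG00000053961) at chr14:44194526-44200537 on the plus strand, and Rnh1 (ENSMUSG00000038650) at chr7:140740235-140752775 on the minus strand. In these PCs Ang4 and Ang5 were at opposite ends of the range of levels, and their sequences are therefore shown side by side. The lines give the 250 bases before the RefSeq start site, 5′ to 3′, as listed by RefSeq on GRCm38.p6, with the motif TATATA in capitals. The same bases were found by exact match at chr14:52011048-52011297 (minus strand) for Ang4 and at chr14:44194276-44194525 (plus strand) for Ang5 on GRCm39.
Ang4 promoter: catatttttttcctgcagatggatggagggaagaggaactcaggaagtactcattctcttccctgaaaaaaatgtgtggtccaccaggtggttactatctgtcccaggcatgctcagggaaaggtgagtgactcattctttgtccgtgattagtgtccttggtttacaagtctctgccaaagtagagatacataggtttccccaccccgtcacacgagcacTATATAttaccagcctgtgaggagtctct
Ang5 promoter: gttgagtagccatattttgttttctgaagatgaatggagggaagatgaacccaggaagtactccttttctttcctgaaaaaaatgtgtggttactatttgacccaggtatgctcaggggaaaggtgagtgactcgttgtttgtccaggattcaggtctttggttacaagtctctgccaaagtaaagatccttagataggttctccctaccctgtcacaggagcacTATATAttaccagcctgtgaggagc
Of the aligned bases of this pair, 208 were identical and 25 different, an identity of 89.3%, and 34 positions were gapped. Each window held the motif, which reads the same on both strands, with its first base at position -29 from the start site in Ang4 and at position -25 in Ang5. Of all 32817 promoters in the RefSeq table, 5.25% held TATATA in the 250 bases and 1.35% in the 50 bases nearest the start site. The motif match is a description of letters and not of a binding site.

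The shared start of Ang and Rnase4 is shown as well, since both genes use it and their counts were compared in each library. RefSeq lists the same 250 bases before the first start site of both genes, which lie at chr14:51328284-51328533 on the plus strand of GRCm39.
Ang and Rnase4 promoter: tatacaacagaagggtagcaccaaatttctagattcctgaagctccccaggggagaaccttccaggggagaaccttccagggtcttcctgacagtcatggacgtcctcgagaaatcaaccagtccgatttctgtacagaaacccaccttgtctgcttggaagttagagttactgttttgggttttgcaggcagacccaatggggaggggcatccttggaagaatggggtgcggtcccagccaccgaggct
This window held no TATATA, and it was 55.9% identical to the Ang4 window over the aligned bases. For Rnase4, RefSeq lists a further start site downstream, whose own 250 bases held the motif at position -90.

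Read assignment among the copies depends on how alike the transcripts are, so a stretch of the coding sequence from GENCODE M39 is shown, in which capitals mark the bases of Ang that are unlike Ang4. It covers coding bases 351 to 425 of Ang4 and 354 to 428 of Ang5 and Ang, where a read of 75 bases cannot separate Ang4 from Ang5.
Ang4 coding stretch: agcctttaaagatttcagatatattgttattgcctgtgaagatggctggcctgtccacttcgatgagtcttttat
Ang5 coding stretch: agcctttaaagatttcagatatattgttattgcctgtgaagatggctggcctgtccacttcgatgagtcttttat
Ang coding stretch: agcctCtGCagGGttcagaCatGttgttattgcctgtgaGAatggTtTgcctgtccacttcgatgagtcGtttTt
Ang4 and Ang5 were identical over these 75 bases, and Ang differed at 13 of them. Over the whole coding sequence the identity was 88.7% between Ang4 and Ang5, 85.4% between Ang and Ang4, and 85.5% between Ang and Ang5. Rnase4 was more distant, with 60.1% identity to Ang and 57.9% to Ang4. Of the 1689 different 75-base words in Ang4 transcripts, 5 were also in Ang5, so nearly the whole Ang4 transcript could be told apart from Ang5. On the opposite strand, Ear-ps3 and Gm63604 overlap 245 and 248 exon bases of Ang4. Ear-ps3 had 2 counts over the 8 libraries, and Gm63604 was not in the table.

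Libraries held 10623658 to 15101627 counts, and 3 counts came to 0.179 to 0.369 CPM, the unit of counts divided by TMM-scaled library size. The 8 PC markers were all tested and summed to 399823 to 719605 CPM in the water group and to 383102 to 484113 CPM in the zinc group. Goblet markers, the next highest list, summed to 10259 to 14879 CPM with water and 10543 to 15264 CPM with zinc. By these sums the main cell type matched its label, and goblet markers were present too. Zinc replicate 3 stood apart. Its correlation with the other libraries, on log2 values over genes, was 0.863 to 0.914, against 0.961 or more among the other 7, and its summed enterocyte markers were at 534 CPM against 81.0 to 158 CPM. In Milli-Q water replicates 3 and 4, deviations from the gene means fell with transcript length, with Spearman coefficients of -0.314 and -0.306 over genes, against -0.0113 to 0.243 in the other libraries. The part of these library differences in the results was not tested. Values without them are given for most differences whose direction they turn or which they move by more than 1.5 times. In bulk samples a smaller amount of RNA per cell and fewer cells of a type cannot be told apart.

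Ang4, the antimicrobial angiogenin of PC granules, was among the most abundant mRNAs of these cells. In the Milli-Q water group Ang4 stood at 8665, 8973, 14427 and 12063 CPM in replicates 1 to 4. In the zinc group it stood at 8899, 7967, 9816 and 10092 CPM. In CPM the highest values were those of Milli-Q water replicates 3 and 4, and the other 6 libraries lay between 7967 and 10092 CPM, so the groups overlapped. The TMM factors of Milli-Q water replicates 3 and 4 were the lowest, at 0.758 and 0.893, against 0.986 to 1.14 in the other 6. As a share of all counts, Ang4 was at 1.09% and 1.08% in Milli-Q water replicates 3 and 4, near the 1.06% of zinc replicate 3. By mean CPM over the 8 libraries, Ang4 ranked 9 among the 10707 genes tested, behind Lyz1, Itln1 and several alpha-defensins (Defa), the abundant antimicrobial products of PCs. Its share of all counts ran from 0.894% in zinc replicate 1 (95% Wilson interval 0.888% to 0.900%) to 1.09% in Milli-Q water replicate 3 (1.086% to 1.098%). These intervals cover counting error only, and they treat each read as independent although the reads carried no molecular identifiers.

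Rnase4, a ribonuclease that cuts RNA after uridine, was the next most abundant of the 5 genes. Its values in the water group were 445, 424, 631 and 584 CPM. With zinc they were 341, 377, 715 and 452 CPM. Zinc replicate 3 held the highest value of all 8 libraries and zinc replicates 1 and 2 the lowest, so that the water values lay inside the range of the zinc values. By mean CPM, Rnase4 ranked 75 of the 10707 genes tested.

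Ang, the classical angiogenin, was far lower than its paralog Ang4. Ang stood at 64.8, 67.1, 79.4 and 74.8 CPM in the water group. It stood at 64.4, 56.9, 99.99 and 67.4 CPM in the zinc group. Zinc replicate 3 was again the highest library, and the other 7 lay between 56.9 and 79.4 CPM. Ang ranked 1124 of the genes tested.

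Ang5, a further angiogenin paralog, was near or at the counting limit in every library. It had 2 counts in Milli-Q water replicate 2, 1 count in Milli-Q water replicate 4 and 0 in the other 6 libraries, against 1016545 counts of Ang4 over all 8. Ang4 counts were thus 338848 times those of Ang5, with an exact 95% binomial interval of 115947 to 1643110. Such an interval pools the counts of the mice and covers counting error only, not the spread between mice. In the zinc group alone Ang5 had 0 counts against 471075 of Ang4. Ang5 was at least 127701-fold lower there by the same exact interval, and 157025-fold lower by a limit of 3 counts over the group. A count of 0 here limits reads assigned to Ang5, because reads from the stretch it shares with Ang4 may have been dropped or given to either gene by the rule for multiple matches, which the sources used here do not give. That stretch is short: of the 634 different 75-base words in Ang5, 5 were also in Ang4, and 26 (4.1%) in any other gene. Ang5 did not pass the filter of the main test. In fits without that filter its log2 fold change was -2.74 with edgeR (SE 1.62, adjusted p = 0.593) and -1.88 with DESeq2 (SE 3.50, adjusted p = 0.964), values that depend on 3 counts in 2 water libraries and give no direction.

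Rnh1, the inhibitor, stood at 102, 117, 129 and 144 CPM in the water group. In the zinc group it stood at 75.8, 93.6, 67.5 and 131 CPM. Zinc replicates 1, 2 and 3 lay below every water library, and zinc replicate 4 lay within the water range. Its rank by mean CPM was 669 of the genes tested.

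**Figure D1:**
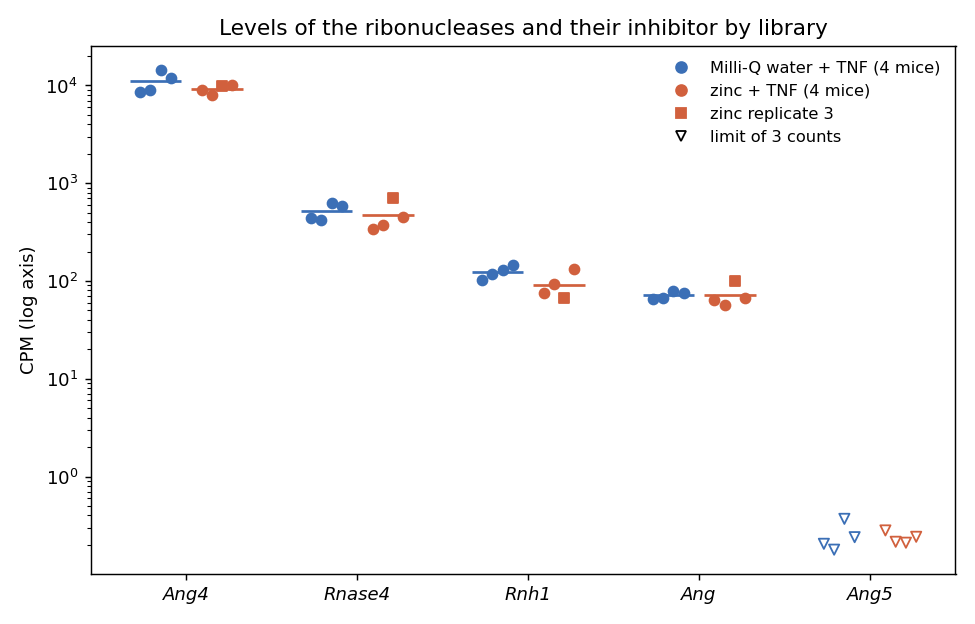
Level of each gene in CPM (log axis) in the 4 Milli-Q water and 4 zinc libraries, all with TNF. Circles are single mice, the square is zinc replicate 3, horizontal lines are group means, and open triangles for Ang5 mark what 3 counts are worth in each library; Ang4 lies between 7967 and 14427 CPM, and Ang between 56.9 and 99.99 CPM.

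To compare levels between genes, CPM was divided by the median length of the coding transcripts. On this scale, over the 8 libraries, Ang4 was at 9631 ± 2036 CPM per kilobase (SD, n = 8), Rnase4 at 316 ± 84.1, Rnh1 at 65.0 ± 16.7 and Ang at 24.6 ± 4.53. This order held in 8 of 8 libraries. The gap between Ang4 and Rnase4 was 20.5-fold to 39.1-fold and that between Rnase4 and Rnh1 3.63-fold to 11.2-fold per kilobase, each wide against the spread between mice. Rnh1 and Ang were the closest neighbours, with a ratio of 1.19 to 3.44 per kilobase, lowest in zinc replicate 3. The mean of Rnh1 lay above that of Ang with each length tried, but the gap depended on the length. With the union of all exons as length, the 2 genes came to 20.04 and 18.3 CPM per kilobase. The gap between Rnase4 and Rnh1 depended on the length too, with means of 350 and 242 CPM per kilobase for the shortest coding transcripts. In counts without division by length, Rnh1 was at 0.675 to 1.95 times Ang, with the lowest ratio in zinc replicate 3. A ratio of inhibitor mRNA to ribonuclease mRNA is a ratio of transcripts and was not measured on protein.

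Ang and Rnase4 share 1387 exon bases on the same strand, 35.4% of the exon bases of Ang and 49.4% of those of Rnase4. The shared exons lie at the start of both genes, and each gene has its own last exon, which holds its coding sequence. In 75-base words, 31.7% of those of Ang and 44.4% of those of Rnase4 were also in another gene, 1241 of them shared by the pair. The sources used here do not give how reads in the shared exons were assigned, so the level of both genes is less certain than that of Ang4, where 11.4% of words were shared, and of Rnh1, where 0.843% were.

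**Figure D2:**
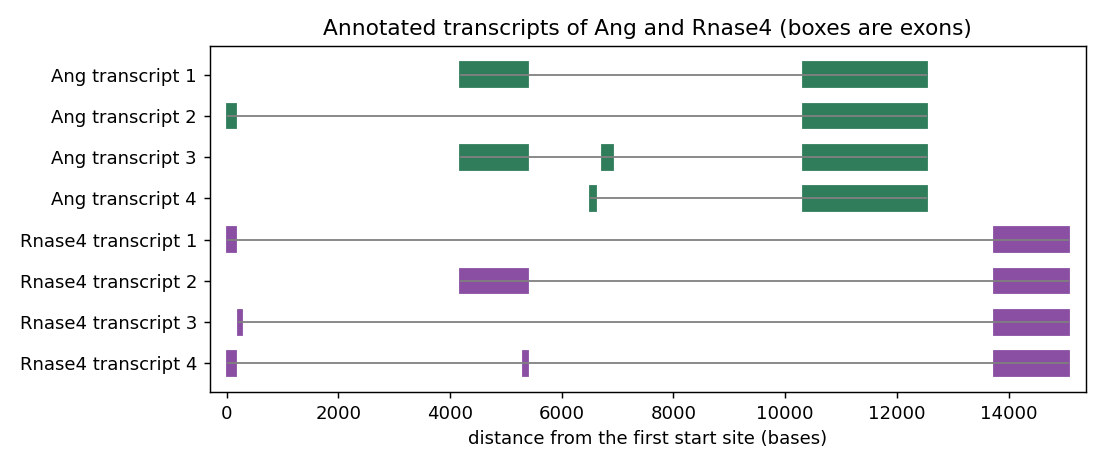
Annotated protein-coding transcripts of Ang (green) and Rnase4 (purple) in GENCODE M39, drawn to scale by distance in bases from the first start site of the pair, with exons as boxes and introns as lines. The early exons coincide between the genes over 1387 bases, and the last exons are separate.

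Whether zinc changed these genes was tested with the quasi-likelihood test of edgeR over all 10707 genes. In this fit none of the 4 tested members passed an adjusted p of 0.05, and neither did any other gene, so the background share of calls was 0%. At an unadjusted p under 0.05 the fit held 1092 genes, 10.2% of those tested, and 0 of the 4 members. Calls by other tools over all genes were 4 with DESeq2 and 0 with limma-voom, none of them a member. The smallest adjusted p of any gene was 0.485, and the median log2 fold change of all genes was 0.01.

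Rnh1 had the largest fitted difference of the 4. It averaged 123 ± 17.9 CPM for water and 92.1 ± 28.4 CPM for zinc (SD, n = 4 mice per group). The log2 fold change was -0.42 with an SE of 0.217 and an edgeR adjusted p of 0.495 (unadjusted 0.0797). Without zinc replicate 4, the log2 fold change was -0.65 with an edgeR adjusted p of 0.181 (unadjusted 0.00607). That library is singled out by its own Rnh1 value, which lay within the water range. In that fit 1960 of 10924 genes had an unadjusted p under 0.05. Over all libraries left out in turn, the log2 fold change of Rnh1 ran from -0.65 to -0.29, always lower with zinc. Of all genes tested, 5.87% had groups without overlap and 3.12% had every zinc library below every water library, and none of the 4 members was among them.

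For Ang4 the water group averaged 11032 ± 2734 CPM and the zinc group 9193 ± 964 CPM (SD, n = 4 each). The log2 fold change was -0.26 with an SE of 0.213 and an edgeR adjusted p of 0.612. It was -0.11 without Milli-Q water replicate 3, and 0.05 with an SE of 0.171 over the 6 libraries left without Milli-Q water replicates 3 and 4. These 2 water libraries also stood highest for Ang4 in CPM, so leaving them out had to lower the water mean.

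For Rnase4 the water group averaged 521 ± 102 CPM and the zinc group 471 ± 169 CPM, and the log2 fold change was -0.15 with an SE of 0.250 and an edgeR adjusted p of 0.823. Here the size changed with the libraries used. Without zinc replicate 3 the log2 fold change was -0.41 with an SE of 0.168 and an edgeR adjusted p of 0.588 (unadjusted 0.0288). In that fit 867 of 10755 genes had an unadjusted p under 0.05. The log2 fold change of Rnase4 was -0.02 without zinc replicate 1 and -0.05 without zinc replicate 2. It was -0.05 and -0.09 without Milli-Q water replicates 3 and 4 in turn, and turned to 0.10 without the latter pair. With all 8 libraries, limma-voom with sample weights gave -0.35 for Rnase4, with an adjusted p of 0.400.

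For Ang the group averages were 71.5 ± 6.76 and 72.2 ± 19.1 CPM. Its log2 fold change was 0.01 with an SE of 0.185 and an edgeR adjusted p of 0.980, and the sign changed with the libraries used. Leaving out zinc replicate 3 gave -0.18, and leaving out zinc replicate 2 gave 0.11.

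**Figure D3:**
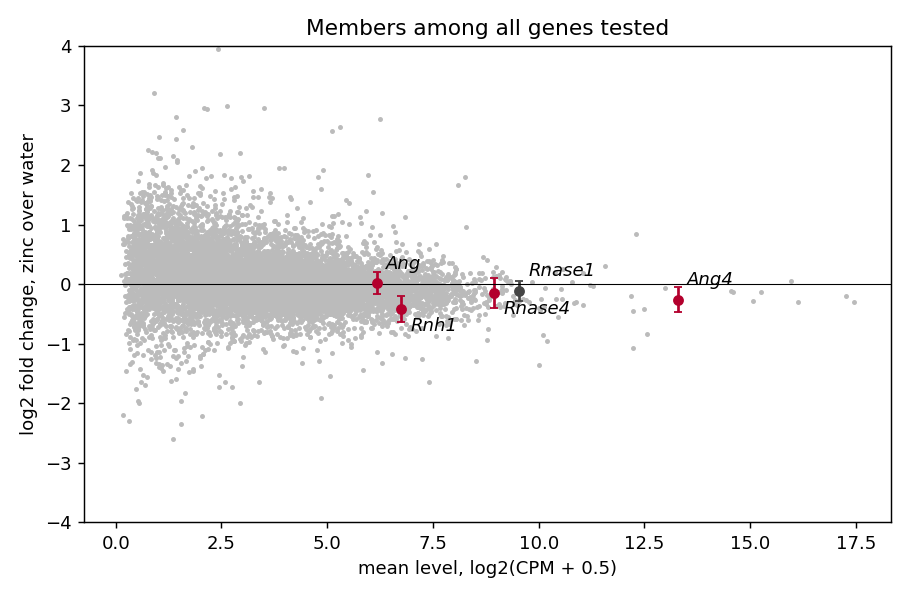
Log2 fold change of zinc over water (vertical axis) against mean level as log2(CPM + 0.5) (horizontal axis) for the 10707 genes tested by edgeR, with Ang, Ang4, Rnase4 and Rnh1 in red, Rnase1 in dark grey and bars for the SE. The members lie between -0.42 and 0.01, within the cloud of other genes at their level.

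**Figure D4:**
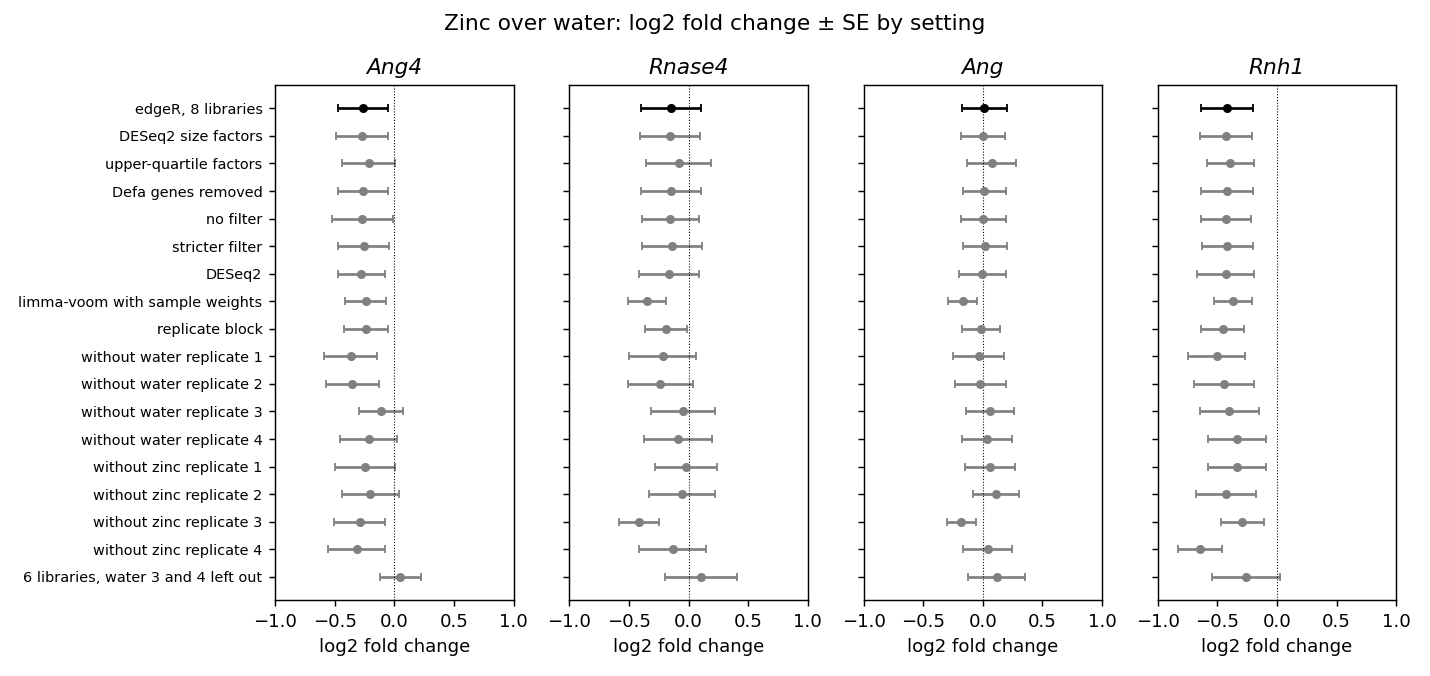
Log2 fold change of zinc over water with its SE for the 4 tested genes under each setting, with the 8-library edgeR fit on top in black. Rnh1 stays below 0 in every setting shown, whereas Ang lies on both sides of 0 and Ang4 and Rnase4 cross it in the bottom setting, without Milli-Q water replicates 3 and 4.

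Copy ratios within a library do not depend on scaling between libraries. The ribonuclease share of all counts is no such ratio and depends on the other genes counted. Ratios and share together gave 5 measures, which were compared by exact two-sided permutation over the 70 assignments of 8 libraries to groups. The smallest possible p of this permutation test was 0.0286. All 5 had a Benjamini-Hochberg adjusted p of 0.429. Ang4 counts were 98.2 to 182 times those of Ang, with a median of 139. In the water group the ratio of Ang4 to Ang, with 0.5 added to each count, was 134, 134, 182 and 161, and in the zinc group 138, 140, 98.1 and 150. Zinc replicate 3 was the lowest of the 8 and Milli-Q water replicate 3 the highest. Mean log2 ratios were 7.24 ± 0.22 (water) and 7.02 ± 0.27 (zinc), and their difference of -0.22 (exact permutation p = 0.314) shrank to -0.09 without zinc replicate 3, to -0.13 without Milli-Q water replicate 3 and to -0.04 without Milli-Q water replicates 3 and 4.

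Between the neighbours, Rnase4 counts were 5.29 to 7.96 times those of Ang. The ratio was 6.87, 6.32, 7.95 and 7.81 with water and 5.29, 6.62, 7.14 and 6.71 with zinc. Zinc replicate 1 was lowest, and the other 3 zinc libraries lay within the water range. Mean log2 ratios were 2.85 ± 0.16 (water) and 2.68 ± 0.19 (zinc). Their difference of -0.17 (exact permutation p = 0.229) came to -0.08 without zinc replicate 1 and to -0.04 without Milli-Q water replicates 3 and 4. In zinc replicate 3, where both Ang and Rnase4 were highest, their ratio was thus within the range of the other libraries.

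Together Ang, Ang4, Ang5 and Rnase4 took 0.935% to 1.151% of all counts, and Ang4 made up 92.3% of that sum in zinc replicate 3 and 94.4% or more in the other 7 libraries. The share averaged 1.08% ± 0.0737 for water and 1.02% ± 0.0975 for zinc (SD, n = 4 mice per group), and the groups differed by -0.0581 percentage points (exact permutation p = 0.343). With single libraries left out this difference ran from -0.101 points without zinc replicate 3 to -0.0288 without zinc replicate 1. It was -0.0364 without Milli-Q water replicate 3, -0.0372 without zinc replicate 2, -0.0884 without Milli-Q water replicate 1, and 0.00162 without Milli-Q water replicates 3 and 4. As a share of the counts outside the Defa genes, the difference was -0.154 points (exact permutation p = 0.314). Defa genes took 34.04% to 44.8% of the counts, most in Milli-Q water replicate 3, where Ang4 was highest too.

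The ratio of inhibitor to ribonuclease counts was 0.0111, 0.0124, 0.00855 and 0.0113 with water and 0.00815, 0.0111, 0.00635 and 0.0124 with zinc. Zinc replicate 3 was lowest, and zinc replicate 4 and Milli-Q water replicate 2 were highest with nearly the same value, so the groups overlapped. On the log2 scale the means were -6.54 ± 0.23 and -6.76 ± 0.44, a difference of -0.23 (exact permutation p = 0.429), which was -0.05 without zinc replicate 3 and -0.35 without Milli-Q water replicates 3 and 4. For Ang5 over Ang4 the log2 ratio was set by the 0.5 added to counts of 0. Its difference of -0.76 (exact permutation p = 0.286) turned to 0.03 when 5 was added instead, so no direction is given.

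**Figure D5:**
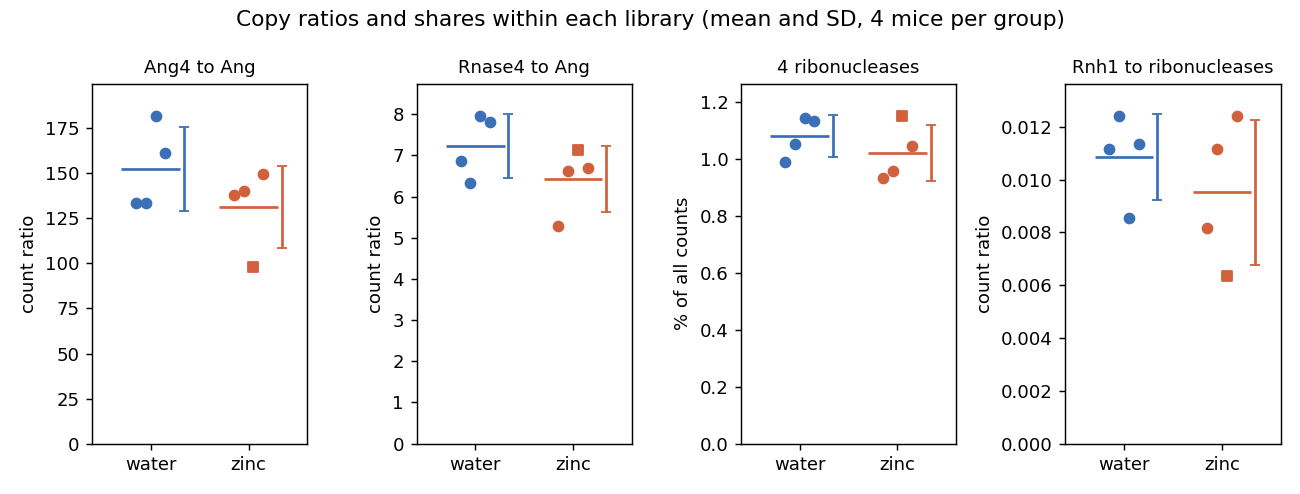
Per-library count ratio of Ang4 to Ang, count ratio of Rnase4 to Ang, summed share of the 4 ribonuclease genes in percent of all counts, and count ratio of Rnh1 to those ribonucleases, by group. Points are mice, the square is zinc replicate 3, and lines and bars are means and SD; in all 4 panels the groups overlap, and zinc replicate 3 is lowest for Ang4 to Ang, at 98.1.

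Over the 8 libraries, the SD of log2 CPM was 0.245 for Ang, 0.282 for Ang4, 0.374 for Rnase4 and 0.392 for Rnh1, beside a median of 0.316 over all genes tested. Over all 8 libraries the log2 ratio of Ang to Rnase4 varied less than either gene, with an SD of 0.185. That of Rnase4 to Rnh1 varied more than either, with 0.511. Neither held within the water group. There the SD was 0.157 for Ang to Rnase4, above the 0.135 of Ang. For Rnase4 to Rnh1 it was 0.182, below the 0.283 of Rnase4 and the 0.211 of Rnh1. Within the zinc group the SD of Rnase4 to Rnh1 was 0.726, and 0.193 without zinc replicate 3. Since Ang and Rnase4 share exons, part of their reads may be counted for either gene. The part of this in the SD of their ratio was not tested. Within the zinc group the log2 ratio of Ang to Ang4 had an SD of 0.274, which was 0.0617 without zinc replicate 3.

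Genes with the pattern most like each member were ranked by the root mean square difference of centred log2 CPM over the 8 libraries, among 5915 genes with a mean of 10 CPM or more. The 3 nearest were Tle1 (0.0760), Gga2 (0.0840) and Hibadh (0.0945) for Ang, and Paip2 (0.0665), Sar1b (0.0796) and Atp6v1g1 (0.0800) for Ang4. They were Stk38 (0.128), Zfyve21 (0.152) and Aimp1 (0.153) for Rnase4, and Sbds (0.117), Sec22b (0.121) and Khdc4 (0.123) for Rnh1. From the side of Rnase4, Ang came at rank 10 with 0.174, and from the side of Ang, Rnase4 came at rank 218. From the side of Rnh1, the further family gene Rnase1 came at rank 963, Ang4 at 1495, Ang at 3999 and Rnase4 at 4035 of the 5915 genes. These are descriptions over the same 8 libraries, which differ in depth.

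Other members of the RNase A family were at or near 0 counts in these PCs. Of 17 listed, 16 were in the table under a matched symbol, Ang3 being the exception, and 10 of these had 0 counts in all 8 libraries, among them the eosinophil-associated ribonucleases Ear1 and Ear2. A further 5 had 2 to 11 counts in total. Ang2 had 11 counts and Ang6, the closest relative of Ang5 with 90.8% coding identity, had 2. The 10 counts of Rnase6, an antimicrobial ribonuclease of myeloid and urinary tract cells, all came from Milli-Q water replicate 2.

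The exception was Rnase1, the secreted pancreatic-type ribonuclease that RNH1 also binds. Rnase1 stood at 654, 779, 859 and 807 CPM with water and at 792, 654, 614 and 805 CPM with zinc. These groups overlapped, with a log2 fold change of -0.11, an SE of 0.165 and an edgeR adjusted p of 0.785, and it was -0.04 without zinc replicate 3 and -0.01 without Milli-Q water replicates 3 and 4. Per kilobase, Rnase1 was at 748 CPM, between Ang4 and Rnase4 in 8 of 8 libraries, and it ranked 44 among all genes tested by CPM. Among the listed family genes, those past the filter were thus Ang, Ang4, Rnase4 and Rnase1, with Ang4 10.7-fold to 15.9-fold above Rnase1 per kilobase.

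The listed genes around angiogenin signalling and tRNA cleavage were all detected. Of the 8, all were tested, 0 were called by edgeR against the background of 0%, and 0 had an unadjusted p under 0.05 against 10.2% of all genes. Their median log2 fold change was -0.10, with 2 higher and 6 lower with zinc, beside 0.01 over all genes. Without zinc replicate 3 the median was 0.0046 beside 0.0042 over all genes, with 4 higher and 4 lower. Plxnb2 and Egfr turned to 0.14 and 0.16 there, Elac2 to 0.02 and Trmt1 to -0.01. Without Milli-Q water replicates 3 and 4 the list median was -0.06 beside 0.02 over all genes, with 2 higher and 6 lower. Plxnb2, the plexin that serves as the angiogenin receptor and is named here for that role with its values known, had 307 ± 59.3 CPM with water and 284 ± 114 CPM with zinc, with 128 CPM in zinc replicate 3 and 290 to 401 CPM in the other zinc libraries. Its log2 fold change was -0.11 with an adjusted p of 0.891, and -0.33 without Milli-Q water replicates 3 and 4. Nsun2, a tRNA methyltransferase whose marks protect tRNAs from cleavage, had the smallest p of the list, at 106 ± 3.48 and 83.9 ± 24.6 CPM, with a log2 fold change of -0.33 and an adjusted p of 0.531, and of -0.17 without zinc replicate 3. Trdmt1, another such methyltransferase, was low, at 1.14 ± 0.68 and 1.55 ± 0.71 CPM, with a log2 fold change of 0.40 and an adjusted p of 0.780. The log2 fold change of Trdmt1 was 0.13 without zinc replicate 3 and 0.05 without Milli-Q water replicates 3 and 4. Alkbh1, a tRNA demethylase, had 4.25 ± 1.24 and 3.23 ± 0.99 CPM, a log2 fold change of -0.39 and an adjusted p of 0.610. That of Alkbh1 was -0.19 without zinc replicate 3 and -0.08 without Milli-Q water replicates 3 and 4. Alkbh3, a demethylase that acts on tRNA too, had 6.11 ± 0.51 and 5.77 ± 0.63 CPM, a log2 fold change of -0.08 and an adjusted p of 0.861. That of Alkbh3 was -0.05 without zinc replicate 3 and -0.0017 without Milli-Q water replicates 3 and 4.

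Among 17 ribonucleases of other families, 14 were tested and 0 were called by edgeR. Their median log2 fold change was 0.18, with 8 higher and 6 lower, and 4 had an unadjusted p under 0.05 beside the 10.2% of all genes, each with an adjusted p of 0.485. Xrn1, the cytoplasmic 5′ to 3′ exonuclease, had 22.0 ± 3.98 CPM with water and 30.9 ± 3.76 with zinc, a log2 fold change of 0.48. Dicer1, which cuts microRNA precursors, had 24.4 ± 4.73 and 33.1 ± 4.01 CPM, a log2 fold change of 0.44. Ern2, the stress sensor with ribonuclease activity found in mucus-secreting epithelium, had 71.3 ± 9.19 and 95.3 ± 19.7 CPM, a log2 fold change of 0.42. Zc3h12a, which degrades inflammatory mRNAs, had 98.3 ± 20.4 and 44.8 ± 28.6 CPM, a log2 fold change of -1.13, with its lowest value of 12.1 CPM in zinc replicate 3. In all 4 the groups overlapped. Without zinc replicate 3 the list median was 0.08, and the log2 fold changes of the 4 were 0.42, 0.35, 0.30 and -0.81 in the order given, with edgeR adjusted p from 0.5002 to 0.622. Without Milli-Q water replicates 3 and 4 those of Xrn1 and Dicer1 came to 0.27 and 0.24.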

How the data were processed

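The values deposited by the authors were raw counts of reads for each Ensembl gene, in 1 column per mouse. The submitters' processing notes name FastQC 0.12.0, STAR 2.7.10a, DESeq2 and mm39, and the labels name a stranded mRNA kit. The methods of the study describe its own alignment to GRCm39 with STAR, of a later release than in the notes, and a GENCODE annotation, followed by Salmon quantification of transcripts. For the deposited table itself, the counter, the annotation release and the handling of reads that match several genes are not given in the sources used here. Of the identifiers, 54749 matched GENCODE M39 (GRCm39) and 665 did not, with 0.00443% of the counts.

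Zinc was compared with water with edgeR 4.0.16 under R 4.3.3 (quasi-likelihood test, TMM factors and filterByExpr), which kept 99.9% of the counts, and Benjamini-Hochberg adjustment ran over all 10707 genes at a threshold of 0.05. The common biological coefficient of variation was 0.269. The script was tested on simulated data. Alternatives used DESeq2 1.42.0, limma 3.58.1 (voom with sample weights), other factors and filters, and libraries left out. Over the 28 library pairs chi-square divided by its degrees of freedom was 6.37 or more, so no pair looked like the same library read again. The labels number the libraries as replicates, and each mouse counted as 1 replicate.

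The named genes were the 5 members and 3 lists (other RNase A family genes, the angiogenin pathway and other ribonucleases), with values for the RNase A family genes past the filter and for at most 4 of smallest p in each other list, to which Plxnb2 was added after its values were seen, and the 3 most similar genes per member. Leaving out libraries for the lists was chosen after seeing the data. Members and lists were chosen with earlier results of these data known. Marker sums used fixed lists of PC, goblet, enterocyte, crypt stem, enteroendocrine and tuft, and immune and stromal genes. Goblet markers summed to 10543 CPM in zinc replicate 3 and to 10259 to 15264 CPM in the others, and crypt stem markers to 955 CPM and 405 to 1028 CPM. Of the enteroendocrine and tuft list 2 of 6 genes were tested, with sums of 0.862 to 12.8 CPM, and of the immune and stromal list 1 of 9 (sums 13.5 to 27.5 CPM, with Col1a1 and Col3a1 at 0 counts). Coding sequences were cut from GENCODE transcripts and aligned globally, and TATATA was searched in the RefSeq promoter windows.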

Additional observations from a re-analysis of the deposited data

How the results depend on the processing

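Each tested gene was fitted under 17 other settings, and no member passed an adjusted p of 0.05 in any of them. DESeq2 called 4 genes, with 1286 at an unadjusted p under 0.05 among 18720, and the cause of this difference was not tested. The log2 fold change of Ang turned to -0.0034 with DESeq2, -0.17 with limma-voom and -0.0163 with the replicate block, and ran from -0.18 to 0.11 with single libraries left out. Without Milli-Q water replicates 3 and 4, Ang4 turned to 0.0496, Rnase4 to 0.10 and the ribonuclease share to 0.00162 percentage points, while Rnh1 was at -0.26 and Ang at 0.12. With 5 added in place of 0.5, the log2 ratio of Ang5 to Ang4 turned to 0.0305. The other 129 values for members, measures and calls kept their direction and side of the threshold.

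The sources used here do not state that replicate numbers pair the mice. Deviations of same-numbered libraries correlated at -0.0389, 0.00698, 0.0342 and 0.0162, which gave no sign of pairing. With so few libraries, some of which stood apart, these values cannot exclude it. With the replicate block Rnh1 was at -0.46 (edgeR adjusted p = 0.595, unadjusted 0.0373), and Ang4 at -0.24. In that fit 802 of 10707 genes had an unadjusted p under 0.05. Levels per kilobase depended on transcript length. Ang4 came to 5726 CPM per kilobase with the union of exons and 14144 with the shortest transcript. With the union, the longest and the shortest in turn, Rnase4 came to 177, 194 and 350, and Rnh1 to 20.04, 51.3 and 242. Rnase4 thus stayed above Rnh1 with each length, by least with the shortest. These length settings were chosen after seeing the data. Depth limits Ang5, where no library held more than 2 counts.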
